A study of Arabidopsis thaliana with 6 samples.

Results

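The data are the array signals of 10 Arabidopsis genes of late seed maturation, taken by their locus numbers and in 3 groups. The groups are the LEA_1 genes AtLEA4-1 (AT1G32560), LEA18 (AT2G35300) and LEA4-5 (AT5G06760), the maturation genes M17 (AT2G41260) and M10 (AT2G41280), and 5 genes of seed maturation proteins, AT3G22490, ATECP31 (AT3G22500), AT5G27980, AT5G53260 and AT5G53270. Of the 10 loci, 7 had a probe set that the annotation of the array gives to them alone, out of 13385 loci named on the array in all. No probe set was named for ATECP31, AT5G53260 or AT5G53270 in the tables used here, so that the last group rests on 2 of its 5 genes.

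RNA of whole 10-day-old Col-0 seedlings, grown under constant light on half-strength medium without further treatment, was hybridized to 6 Affymetrix ATH1 arrays, 3 of frb1-1 and 3 of the wild type. The mutant frb1-1 carries a T-DNA insertion in the predicted promoter of FRB1 (AT5G01100), which encodes a Golgi protein, and is described as a partial loss of function. It stands here as a single allele, and the labels describe the replicates as biological. The labels were not checked against FRB1 itself, for which the tables name no probe set.

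Late embryogenesis abundant (LEA) proteins are very hydrophilic proteins that build up as seeds dry, and they are thought to protect membranes and other proteins while water is lost. Many are largely unfolded in solution and gain structure on drying. Their genes are switched on in the maturing embryo through abscisic acid (ABA) and seed transcription factors such as ABI3. They are shut down after germination, and in leaves and roots many of them respond to water deficit or ABA. The families differ in sequence: the LEA_1 family, called group 4 in another numbering (hence the names LEA4-1 and LEA4-5), is separate from the LEA_4 family.

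On these arrays a probe set of several short oligonucleotides measures a transcript, and its value here is a linear signal intensity that the authors made with MAS 5.0, with a scaling target of 500. Arrays correlated from 0.918 to 0.972 within a genotype and from 0.920 to 0.962 between genotypes, over the log2 signals of the 15218 probe sets whose log2 signals averaged 6 or more, which is a signal of 64. One limma fit tested these probe sets together, and a gene was called higher or lower where its adjusted p was under 0.05. With so few arrays precision is limited, and the exact permutation test over the arrays, two-sided, has a smallest p of 0.10. Wild-type replicate 3 had the lowest median signal of the arrays, 153, and wild-type replicate 1 the highest, 199. Since whole seedlings were used, more RNA per cell and more cells of a kind cannot be told apart.

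M17 and LEA18 were higher in frb1-1 than in wild-type seedlings, M17 by 5.31-fold and LEA18 by 2.74-fold (from mean log2 signals). For AtLEA4-1 and LEA4-5 the mean signal was also higher in frb1-1, but the test was not passed. M10 and both measured seed maturation protein genes stayed under a signal of 64 on every array of both genotypes and were not tested. Thus 2 of the 4 tested genes rose and none fell, where 0.276% of all tested probe sets were called higher and 0.0920% lower. All 4 passed the minimum in the wild type alone, with mean log2 signals of 7.29 to 8.59 there. AtLEA4-1, LEA18 and M17 also stand in the list of altered genes that the study drew from these same arrays, which is therefore no independent evidence of their direction.

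**Figure D1:**
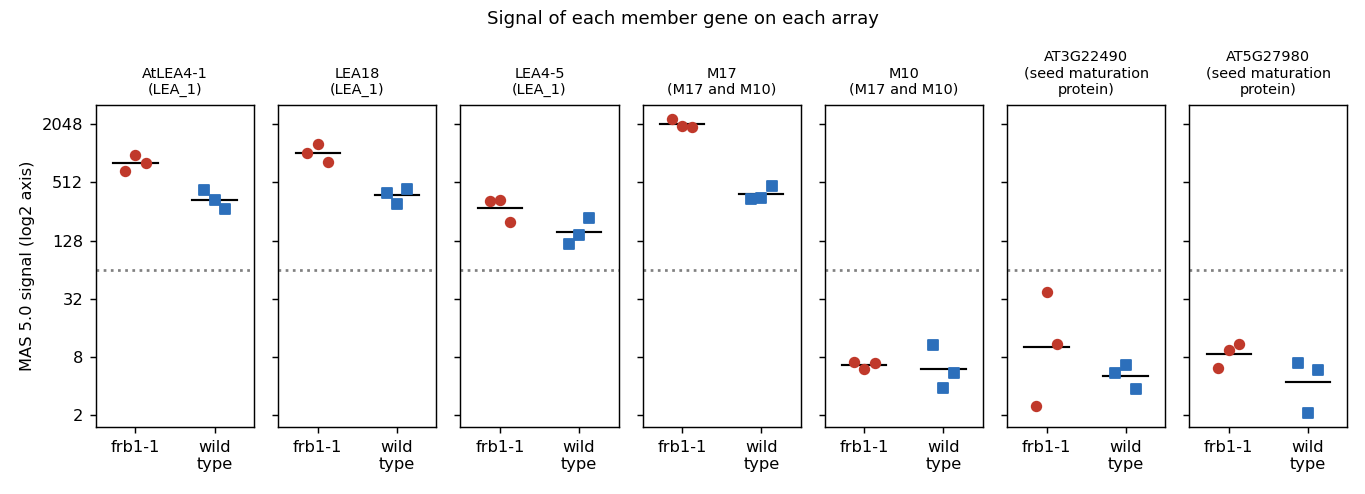
Signal of each of the 7 measured genes on each array, on a log2 axis, with frb1-1 (circles) left of the wild type (squares). The bar is the mean of the log2 signals of 3 arrays and the dotted line a signal of 64: M17, LEA18 and AtLEA4-1 have no overlap between genotypes, LEA4-5 overlaps, and the other 3 genes lie below the line on every array.

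M17 is a gene of late embryogenesis whose seed expression is known to depend on ABI3. Its signal was 2294, 1949 and 1913 on frb1-1 replicates 1, 2 and 3, against 345, 350 and 474 on wild-type replicates 1, 2 and 3. The lowest frb1-1 array thus lay far above the highest wild-type array, and the 3 arrays of each genotype lay close together. The mean was 2052 ± 210 in frb1-1 and 389 ± 73.0 in the wild type (SD, n = 3 each). The log2 fold change of M17 was 2.41 (standard error, SE, 0.22, 95% interval 1.93 to 2.89, limma adjusted p = 4.70e-04). All 4 tested genes were higher at an unadjusted p under 0.05, which held for 3.86% of all tested probe sets. By p M17 was the 6th and by log2 fold change the 13th of the 15218 probe sets tested. M17 kept its call without any one array, with an adjusted p of at most 0.00958.

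M10 is the gene next to M17 on chromosome 2 in the TAIR10.1 order of protein-coding genes, and like M17 it was described from maturing seeds. Its signal was 7.14, 5.99 and 7.02 on the frb1-1 arrays, against 10.6, 3.79 and 5.47 on the wild-type arrays. The genotypes overlapped, with the highest and the lowest of the 6 signals both in the wild type. The means were 6.72 ± 0.63 in frb1-1 and 6.61 ± 3.52 in the wild type (SD, n = 3 each), and fitted without a minimum signal the log2 fold change was 0.15 (SE 0.88). At this signal a fall of M10, or a rise that kept it near these values, was not detectable. Its frb1-1 signals stayed far under those of M17 on the same arrays. The gene on the other side of M17, AT2G41250, had a log2 fold change of 0.58 (SE 0.28, limma adjusted p = 0.889).

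The LEA_1 genes encode small proteins with a conserved part at the N-terminus that can form a helix, and in Arabidopsis loss of LEA4-5 is known to lower tolerance of water deficit. For LEA18, also called LEA4-2, the signal was 1025, 1269 and 836 on the frb1-1 arrays, against 400, 304 and 435 on the wild-type arrays. Every frb1-1 array was above every wild-type array. The mean of LEA18 was 1043 ± 217 in frb1-1 and 379.8 ± 68.3 in the wild type (SD, n = 3 each), a log2 fold change of 1.45 (SE 0.24, 95% interval 0.92 to 1.98, limma adjusted p = 0.0249). This call was less firm than that of M17. It was lost without frb1-1 replicate 1 (adjusted p = 0.152), frb1-1 replicate 2 (0.171), wild-type replicate 1 (0.0963) or wild-type replicate 2 (0.119), and without the mean-variance trend (0.102). The range over all alternatives was 0.00138 to 0.171. Its lowest value came without both replicate-3 arrays, a fit decided on with the values known. The lowest planned value was 0.00256, with array weights.

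AtLEA4-1 had a signal of 669, 992 and 803 on the frb1-1 arrays, against 425, 339 and 268 on the wild-type arrays. Its groups did not overlap either, with a mean of 821 ± 163 in frb1-1 and 344 ± 78.5 in the wild type (SD, n = 3 each). The log2 fold change of AtLEA4-1 was 1.26 (SE 0.25, 95% interval 0.71 to 1.81), and the adjusted p of 0.0651 from limma missed the threshold. It passed with array weights (0.0334), with each array scaled to a common median (0.0480) and with the replicate numbers as a block (0.0199). The range over all alternatives was 0.0199 to 0.388.

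LEA4-5 had a signal of 331, 333 and 199 on the frb1-1 arrays, against 118, 148 and 219 on the wild-type arrays. Here the groups overlapped: frb1-1 replicate 3 was below wild-type replicate 3, while the other frb1-1 arrays were above all wild-type arrays. The mean was 288 ± 76.6 in frb1-1 and 162 ± 52.0 in the wild type (SD, n = 3 each), a log2 fold change of 0.84 (SE 0.32, 95% interval 0.14 to 1.54, limma adjusted p = 0.688). With both replicate-3 arrays left out, which was decided on with the values known, the log2 fold change of LEA4-5 was 1.33 with an adjusted p of 0.0399.

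**Figure D2:**
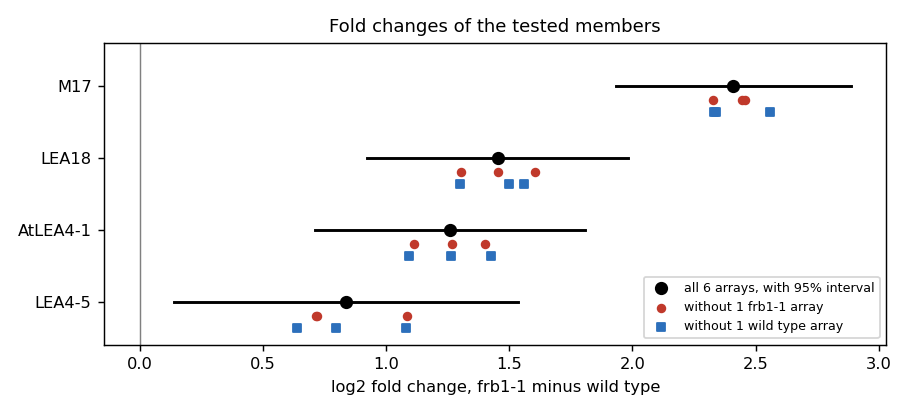
Log2 fold change, frb1-1 minus wild type, of the 4 tested genes with all 6 arrays (black point, 95% interval from limma) and without 1 array at a time (circles, without an frb1-1 array; squares, without a wild-type array). All points lie above 0, from 0.64 for LEA4-5 without wild-type replicate 1 to 2.56 for M17 without wild-type replicate 3.

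When the mean frb1-1 signal was divided by the mean wild-type signal, M17 had 5.27, LEA18 2.75, AtLEA4-1 2.39 and LEA4-5 1.78. Thus 3 of the 4 tested genes reached a 2-fold higher mean signal, where 1.18% of all tested probe sets did so. In the same 3 genes each frb1-1 array lay above each wild-type array, which held for 6.26% of all tested probe sets. These 3 genes are the ones in the study's own list of altered genes, drawn from these same arrays. The genes were also chosen with earlier results of these data known, so neither share is independent support. The median log2 fold change of the LEA_1 genes was 1.26, that of all tested probe sets 0.01, and 95% of tested probe sets lay under 0.62.

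The change of M17 was set against that of each LEA_1 gene within the same arrays, among 6 comparisons between pairs of the tested genes. The difference of log2 fold changes was -0.96 for LEA18 minus M17, -1.15 for AtLEA4-1 minus M17 and -1.57 for LEA4-5 minus M17. In each of these 3 pairs the frb1-1 arrays lay on one side of the wild-type arrays, and the exact two-sided permutation test gave its smallest p, 0.10 (0.20 adjusted over the 6 pairs). Among the LEA_1 genes the differences were -0.19 for AtLEA4-1 minus LEA18, 0.42 for AtLEA4-1 minus LEA4-5 and 0.61 for LEA18 minus LEA4-5. The genotypes overlapped in all 3 of these pairs, and the exact permutation p was 0.60, 0.60 and 0.20. With 3 arrays against 3, this permutation test can give no smaller p for any pair, and no other test of these differences was run.

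Within the genotypes the genes did not deviate as one. On frb1-1 replicate 3 the log2 signal of LEA4-5 was 0.49 under its group mean, that of LEA18 0.30 and that of M17 0.10, and that of AtLEA4-1 was 0.01 under it. On wild-type replicate 3 LEA4-5 was 0.49, M17 0.30 and LEA18 0.21 above the group mean, while AtLEA4-1 lay below it by 0.33. Both replicate-3 arrays thus brought the genotypes closer for LEA4-5, LEA18 and M17 and for AtLEA4-1 wild-type replicate 3 moved them apart.

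The genes of the third group belong to the seed maturation protein family, whose members include ECP31, first found in embryogenic cells of carrot. AT3G22490 and ATECP31 are neighbours on chromosome 3, and AT5G53260 and AT5G53270 on chromosome 5. The signal of AT3G22490 was 2.47, 38.0 and 10.8 on the frb1-1 arrays, against 5.45, 6.54 and 3.77 on the wild-type arrays. Its frb1-1 arrays held both the lowest and the highest value, so that its mean of 17.1 ± 18.6 in frb1-1, against 5.25 ± 1.40 in the wild type (SD, n = 3 each), rested on replicate 2. AT5G27980 had a signal of 6.21, 9.46 and 11.0 on the frb1-1 arrays, against 6.99, 2.12 and 5.95 on the wild-type arrays, and its groups overlapped.

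Neither gene could be called in either direction. Fitted without a minimum signal, the log2 fold changes of AT3G22490 and AT5G27980 were 0.97 (SE 1.08) and 0.96 (SE 0.91), with an adjusted p of 0.9997 for each from limma. The exact permutation p was 0.50 for AT3G22490 and 0.20 for AT5G27980. In the same fit the standard errors of the LEA_1 genes were 0.23 to 0.35, so that a change as large as that of LEA18 was not detectable here. The 18 signals of M10, AT3G22490 and AT5G27980 ran from 2.12 to 38.0. For this family, and for M10, the arrays therefore give no direction, and the rise is shown for 1 of 3 LEA_1 genes and for M17.

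Of 39 other LEA genes that were listed, from the LEA_4, LEA_5, LEA_2 and LEA_3 families, the dehydrins, and AT2G23110 and AT2G23120, 27 had a named probe set and 16 were tested. Of these, 1 rose and none fell, where 0.276% of all tested probe sets were called higher and 0.0920% lower. In 14 of 16 the log2 fold change was positive, against 51.3% of all tested probe sets. At an unadjusted p under 0.05 from limma, 6 were higher (3.86% of all tested) and none lower. In 7 every frb1-1 array lay above every wild-type array (6.26% of all tested), and in none below. The median log2 fold change of the 16 was 0.51, with a range of -0.20 to 2.24. The gene that rose was AT3G02480, annotated as related to ABA-responsive proteins. Its signal was 2760, 3272 and 2525 on the frb1-1 arrays, against 499, 712 and 604 on the wild-type arrays, a log2 fold change of 2.24 (SE 0.22, limma adjusted p = 8.14e-04). The log2 fold changes of LEA18 and AtLEA4-1 lay below that of AT3G02480 and above that of the next tested gene of the list, AT3G53040, at 1.004 (SE 0.31, adjusted p = 0.433).

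**Figure D3:**
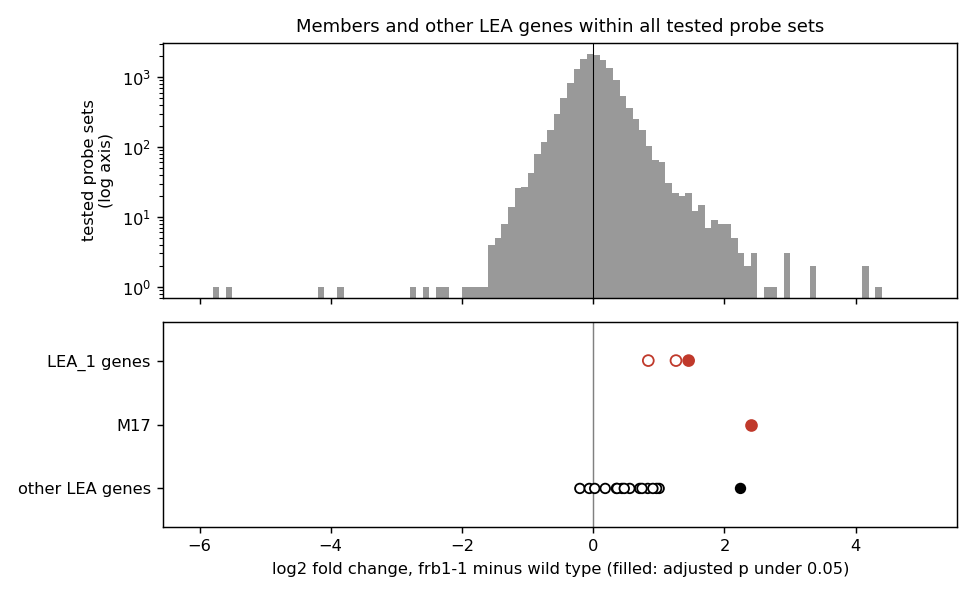
Log2 fold changes, frb1-1 minus wild type, of all 15218 tested probe sets (histogram, counts on a log axis) and below them of the LEA_1 genes, M17 and 16 other LEA genes, 1 point per gene, filled where the adjusted p was under 0.05. LEA18, M17 and AT3G02480 are filled, and only 2 of the points lie below 0.

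Lists of genes of the seed programme and of ABA and drought responses could hardly be read. Of 66 loci in 5 lists (seed maturation regulators, repressors of the seed programme, ABA synthesis and breakdown, ABA perception and signalling, and ABA and drought response markers), 3 had a named probe set. Of these, 0 passed the test in limma, where 0.276% of all tested probe sets were called higher and 0.0920% lower. At an unadjusted p under 0.05 from limma, 2 were higher (3.86% of all tested). In all 3, EEL, CYP707A3 and HIS1-3, every frb1-1 array lay above every wild-type array (6.26% of all tested). No gene of the repressors or of ABA perception was named. Apart from controls, 9210 probe sets were left without a single named locus here, so a gene that was not named may still be on the array. EEL, a bZIP factor that binds promoters of LEA genes in seeds, had a signal of 76.9, 93.9 and 108 on the frb1-1 arrays, against 50.8, 76.0 and 64.5 on the wild-type arrays. Its signals are close to the minimum, and its log2 fold change was 0.55 (SE 0.43) and did not pass the test.

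CYP707A3, an enzyme that breaks down ABA, had a signal of 980, 725 and 419 on the frb1-1 arrays, against 391, 238 and 130 on the wild-type arrays. The groups did not overlap, with a log2 fold change of 1.54 (SE 0.40, limma adjusted p = 0.242). HIS1-3, a linker histone induced by drought and ABA, had a signal of 286, 365 and 283 on the frb1-1 arrays, against 141, 208 and 91.2 on the wild-type arrays. Its log2 fold change was 1.15 (SE 0.32, adjusted p = 0.315). Neither passed the test in the reported fit. CYP707A3 passed with array weights (limma adjusted p = 0.0388), with the replicate numbers as a block (0.00242) and without both replicate-3 arrays (0.0127). HIS1-3 passed under no alternative.

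The storage protein gene CRA1, a marker of seed tissue, rose beside M17 and LEA18. Of 11 seed storage and oil body markers, 3 had a named probe set, 1 of which rose, and their summed signal was 4747 to 7823 on the frb1-1 arrays, against 480 to 898 on the wild-type arrays. CRA1, a cruciferin storage protein, made up most of it on the frb1-1 arrays, with a log2 fold change of 4.12 (SE 0.30, limma adjusted p = 7.29e-05). The oleosin gene OLEO2 had a log2 fold change of 1.61 (SE 0.37, limma adjusted p = 0.133) with groups that did not overlap, and OLEO3, another oleosin gene, had -0.13 (SE 0.42), and neither passed the test. Of 6 seed coat markers, BAN was at 3.05 to 7.23 on the frb1-1 arrays and at 6.74 to 8.25 on the wild-type arrays, and DFR (TT3) had a log2 fold change of 0.35 (SE 0.24) that did not pass the test. The part of seed tissue or of remaining seed RNA in the rise of M17 and LEA18 was not tested. Of 7 root markers EXPA7 was the only one named, with a log2 fold change of 0.13 (SE 0.24), and of 7 markers of green shoots none was named, so that the label of whole seedlings was hardly checked by markers.

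The genes whose pattern over the 6 arrays was most like that of the 4 tested genes were found by Pearson's r with the mean of their standardized log2 signals. The 5 with the highest r among named probe sets were MLS (0.991), AT2G21820 (0.989), AT5G04760 (0.982), MGL (0.981) and AT5G47600 (0.980). MLS is malate synthase, an enzyme of the glyoxylate cycle by which seedlings use stored oil. It was called higher, with a log2 fold change of 1.34 (SE 0.21, limma adjusted p = 0.0189). Its call was lost without replicate 1 or 2 of either genotype (0.0788 to 0.139) and without the mean-variance trend (0.0678). AT2G21820, which the supplement of the study describes as similar to a seed maturation protein, had a log2 fold change of 1.39 (SE 0.27, adjusted p = 0.0584). That of MGL, which breaks down methionine, was 1.23 (SE 0.25, adjusted p = 0.0699). AT2G21820 and MGL both passed with array weights (0.0130 and 0.00924) and with the replicate numbers as a block (0.0243 and 0.0281). They also passed without wild-type replicate 3 (0.0485 and 0.0492) and without both replicate-3 arrays (0.0114 and 0.00757). AT5G04760 had a log2 fold change of 0.81 (SE 0.22, adjusted p = 0.292) and AT5G47600 one of 0.43 (SE 0.29, adjusted p = 0.996). Neither of these passed the test. With 6 arrays in 2 genotypes, r is high for any gene that differs between the genotypes with little spread, and 67 of the tested probe sets had an r above 0.95.

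**Figure D4:**
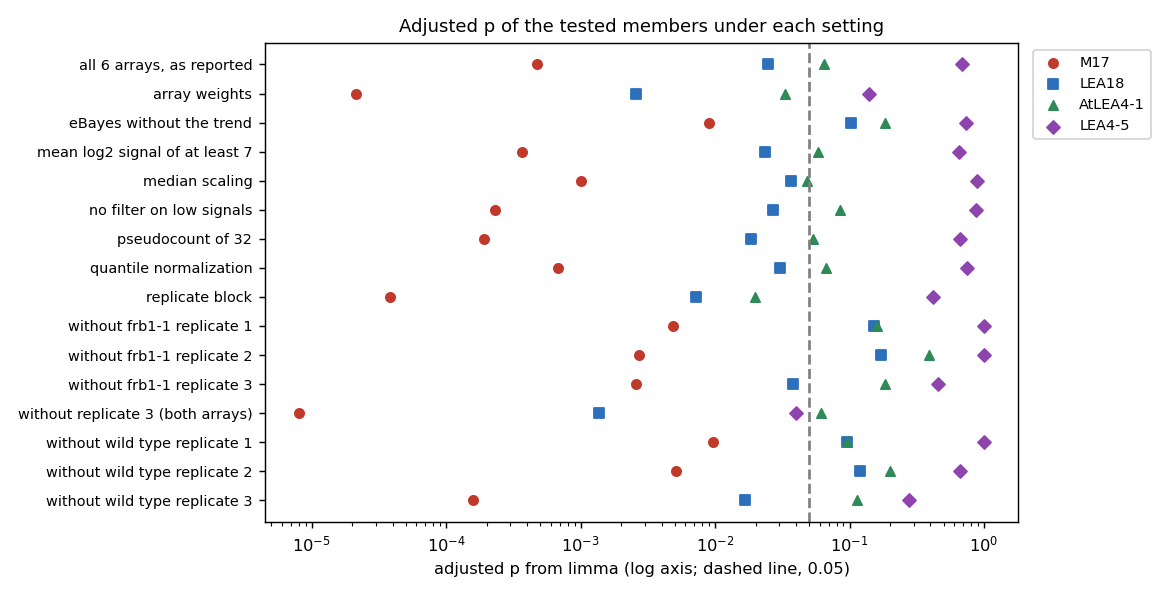
Adjusted p from limma, on a log axis, of the 4 tested genes under each setting, with the dashed line at 0.05. M17 lies left of the line in every row, LEA18 in all but 5 of the 15 alternatives, AtLEA4-1 in 3 and LEA4-5 in 1. The row where LEA4-5 passes is the fit without both replicate-3 arrays, decided on with the values known.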

How the data were processed

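The deposited table holds MAS 5.0 signal intensities of 22810 probe sets on a linear scale, which the authors scaled to a target of 500. Per the methods of the study, probe sets called absent were removed before its analysis. The table holds all of them and no detection calls. Here 64 control probe sets were left out. Log2 signals of probe sets with a mean of at least 6 were fitted with limma 3.58.1 in R 4.3.3 (lmFit, eBayes with a mean-variance trend, genotype only) without a pseudocount, and p-values were adjusted by Benjamini-Hochberg over all of them. The fit was tested on simulated data. Probe sets were tied to loci through the Entrez numbers of the array annotation and RefSeq (TAIR10.1), with 1 gene for 13513 and several for 503, and 52 more through the supplement of the study (names only). No coordinates are given. Promoter and protein sequences were not analysed here.

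The genes and lists were chosen with earlier results of these data known. Named are all 10 genes, up to 3 called genes or the one with the smallest p of each other list, and the 5 most alike. AT2G41250, AT3G53040, OLEO2, OLEO3 and BAN fall outside this rule and were chosen with their values known. Alternatives were quantile normalization, median scaling, no minimum or one of 7, a pseudocount of 32, a replicate block, no trend, array weights and each array left out. A fit without both replicate-3 arrays came later, with the values known. No pair of arrays held identical values.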

Additional observations from a re-analysis of the deposited data

How the results depend on the processing

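M17 was called higher under all 15 alternatives, with log2 fold changes of 2.32 to 2.61. LEA18 was called under 10 of 15, AtLEA4-1 under 3 and LEA4-5 under 1, and none of the 4 changed sign under any of them. The 15 include the fit without both replicate-3 arrays, which was decided on with the values known. That fit gave the only call of LEA4-5, 1 of the 10 calls of LEA18 and the 2.61 of M17. The number of the 4 genes called higher was 2 in the reported fit. With all arrays kept, it was 1 without the mean-variance trend and 3 with array weights, median scaling or the replicate block. Without arrays it was 1 to 3, the highest without both replicate-3 arrays. No alternative called one of them lower. Over all probe sets, 42 were called higher and 14 lower. With array weights these counts were 98 and 24, without the trend 19 and 9, and without both replicate-3 arrays 109 and 28. With a minimum of 7 in place of 6 for the mean log2 signal, 9 were called lower. Without 1 array, 11 to 66 were called higher and 5 to 16 lower. The cause was not tested. The median log2 fold change of M17 and M10 was 1.28 with M10 included, against 2.41 for M17 alone.

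The replicate numbers were used as a block in one alternative, the replicate block, which called 107 probe sets higher and 31 lower, and AtLEA4-1 besides M17 and LEA18 (limma adjusted p = 0.0199). It also called CYP707A3 (0.00242), AT2G21820 (0.0243) and MGL (0.0281). Deviations from the group means correlated at 0.04, 0.28 and 0.32 for replicates 1, 2 and 3. Replicates 2 and 3 of frb1-1 correlated best with the wild-type array of their own number. Against wild-type replicates 3 and 2 they had -0.31 and -0.30. Replicate 1 of frb1-1 correlated best with wild-type replicate 2 (0.11). Whether the numbers pair the samples is thus not settled, and the reported fit used genotype only. The planned comparison of promoter windows was not run. Signals under 64 limit M10, AT3G22490 and AT5G27980, for which no direction can be given.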

Other observations

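Of the 11 other LEA genes whose probe sets were under the minimum signal, 7 had a positive and 4 a negative log2 fold change, down to -1.24 for AT2G18340. In 2 of the 11, AT5G44310 and AT2G42560 of the LEA_4 family, all frb1-1 arrays lay above all wild-type arrays. This held for 3.2% of the 7528 probe sets under the minimum. In 0 of the 11 all frb1-1 arrays lay below all wild-type arrays, which held for 5.77% of those probe sets. AT5G44310 had a signal of 62.0, 64.4 and 26.4 on the frb1-1 arrays, against 16.0, 5.55 and 4.70 on the wild-type arrays. AT2G42560 had 105, 57.5 and 102 on the frb1-1 arrays, against 6.46, 47.5 and 10.9 on the wild-type arrays. These 3 genes were picked out with their values known, and none of the 11 was tested.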
